A study of Caenorhabditis elegans with 6 samples.

Results

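The 9 dod genes described here are dod-3, dod-6, dod-17, dod-19, dod-20, dod-21, dod-22, dod-23 and dod-24, chosen by their gene identifiers from the 46778 genes of a transcript table of the nematode Caenorhabditis elegans. The name dod stands for downstream of daf-16, and the genes carry it from earlier work on long-lived mutants. By that work, dod-3 and dod-6 are activated by DAF-16, and the other 7 are repressed. The table holds 6 libraries of total RNA, 3 from animals treated with HLB01 and 3 from Control animals. HLB01 is a code name, and the study concerns Vicatia thibetica, a plant whose root extract is its subject. The sources used here give no strain, stage, dose or duration. By title the 3 treated libraries are replicates of HLB01, which set the groups here, but 1 label of each names the agent as HLB01, HLB02 or HLB03. Nothing in the labels says that replicates came from separate cultures, so p-values measure the spread between these samples, which may be technical.

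DAF-16 is the FOXO transcription factor of the worm. Signalling from the insulin receptor DAF-2 through AGE-1 and the AKT kinases keeps it out of the nucleus, and lower signalling lets it enter. Genes that it activates serve stress resistance and metabolism, whereas many that it represses depend on the zinc finger factor PQM-1, which leaves the nucleus when DAF-16 enters. Transcripts of dod-3 and of repressed genes such as dod-17 and dod-24 are often measured as readouts of DAF-16. The repressed members dod-17, dod-21, dod-22 and dod-24 encode proteins with a CUB-like domain, a family that is large in nematodes and is known from the intestinal response to pathogens.

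Levels are given in TPM, a transcript abundance that the authors corrected for length and scaled to the same sum in every library, so that genes can be compared within a library. The 6 columns summed to between 996559 and 997388 TPM. TPM values keep no read depth, so the counting error behind a value is not known, and it weighs most on members near 1 TPM. HLB01 replicate 3 stood apart on the first principal component of the tested genes, with a score of 32.01 against -15.29 to -0.57 in the other libraries. It also had the most ribosomal RNA, 4895 TPM against 530 to 2684 TPM elsewhere. Marker genes of the intestine, germline, muscle, neurons and epidermis were present, and yolk protein genes were abundant. The summed level of 9 intestine markers was 3165 ± 225 TPM in HLB01 and 3644 ± 202 TPM in Control (SD, n = 3 each), without overlap between the groups. Of these 9, act-5, cpr-1 and asp-1 lay below Control in all HLB01 libraries and vha-6 above, and none passed the test over all genes. Of the 12590 genes tested, 6.99% lay below Control in all HLB01 libraries and 6.85% above. The yolk genes vit-2 and vit-6 summed to 4786 to 6128 TPM in HLB01 and to 6663 to 7473 TPM in Control, and the sums of epidermis, germline, muscle, neuron, pharynx and sperm markers overlapped between the groups. In whole animals, a smaller share of RNA from a tissue and lower levels of these transcripts within it cannot be told apart.

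None of the 9 dod genes passed the test over all genes between HLB01 and Control. The abundant members dod-19 and dod-23, both of the repressed class, and dod-6 of the activated class were 1.22-fold to 1.26-fold lower in mean TPM in HLB01 than in Control, without overlap between the groups. Mean levels of both activated members, dod-3 and dod-6, were lower in HLB01, and of the 7 repressed members 4 had a negative and 3 a positive log2 fold change. The test was limma on log2(TPM + 1) with a mean-variance trend over the 12590 genes that reached 1 TPM in 3 or more libraries, two-sided, with Benjamini-Hochberg adjustment over all of them and a threshold of 0.05. Over all tested genes 50 changed, which is 0.397%, 21 of them higher and 29 lower in HLB01, and 0 of the 9 dod genes were among them. At an unadjusted p below 0.05, 4 of the 9 (44.4%) were lower, namely dod-3, dod-6, dod-19 and dod-23, and 0 were higher. Of all tested genes, 4.52% were lower and 3.80% higher by the same criterion. The median log2 fold change of the 9 genes was -0.25, against -0.0038 over all tested genes.

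All 9 members were tested. For 8 of them every library was at or above 1 TPM. The exception was dod-22, which reached 1 TPM in 2 HLB01 libraries and 1 Control library. The 3 HLB01 values lay below the 3 Control values for 4 of the 9 members, dod-6, dod-19, dod-20 and dod-23, and above them for 0 members. Among all tested genes the first pattern held for 6.99% and the second for 6.85%. Without HLB01 replicate 3, the remaining HLB01 values were below Control for 4 members and for 12.3% of all tested genes.

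**Figure D1:**
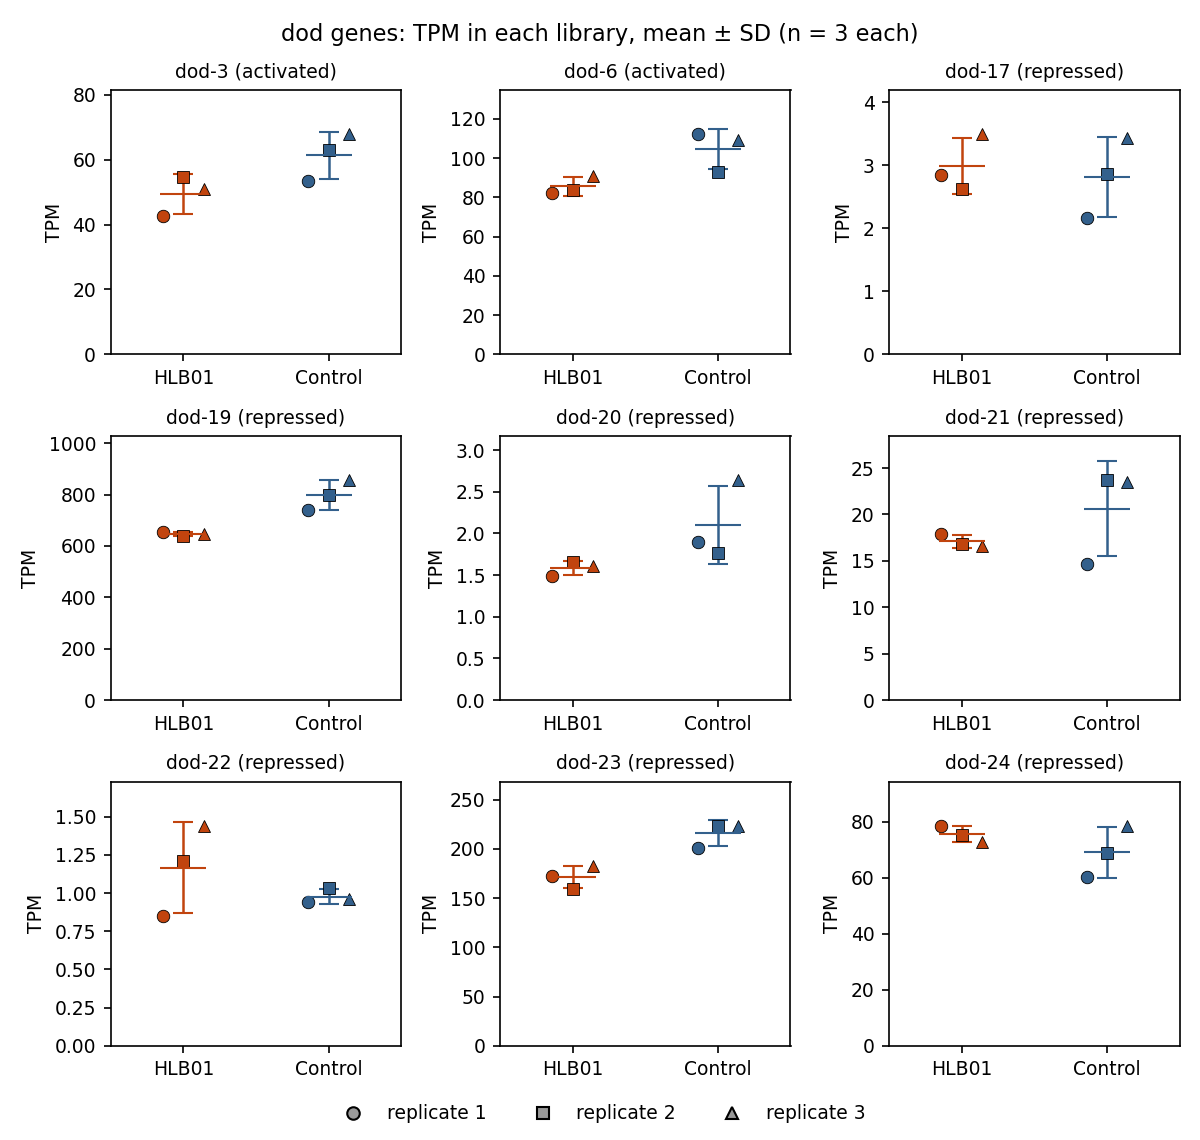
TPM of each dod gene (vertical axes, from 0) in the 3 HLB01 and 3 Control libraries, with the symbol shape marking the replicate and bars giving mean ± SD (n = 3 each). The HLB01 points lie below the Control points for dod-6, dod-19, dod-20 and dod-23 and overlap with them for the other 5 genes.

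Of the activated members, dod-3 (WBGene00016052, WBcel235 chromosome V, 2730622 to 2731098, minus strand, 2 exons) had 42.59, 54.74 and 51.09 TPM in the HLB01 libraries, against 53.54, 62.81 and 67.73 TPM in the Control libraries. HLB01 replicate 1 held the lowest value, and HLB01 replicate 2 lay above Control replicate 1, so the groups overlapped. The means were 49.5 ± 6.23 TPM in HLB01 and 61.4 ± 7.21 TPM in Control (SD, n = 3 each), and the log2 fold change was -0.31 ± 0.12 (SE, as for all log2 fold changes here; 95% confidence interval -0.58 to -0.03, limma adjusted p = 0.545). That value was -0.20 without HLB01 replicate 1.

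The second activated gene, dod-6 (WBGene00011869, chromosome III, 10197716 to 10198352, plus strand, 2 exons), had 82.17, 83.69 and 91.15 TPM in the HLB01 libraries, against 112.1, 92.99 and 109.06 TPM in the Control libraries. The groups did not overlap, and the highest HLB01 value lay just under Control replicate 2. The means were 85.7 ± 4.81 TPM in HLB01 and 104.7 ± 10.3 TPM in Control, a 1.22-fold lower level in HLB01, with a log2 fold change of -0.28 ± 0.08 (limma adjusted p = 0.330). The sum of dod-3 and dod-6 was 135 ± 9.19 TPM in HLB01 and 166 ± 10.5 TPM in Control.

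Among the repressed members, dod-19 (WBGene00022644, chromosome V, 411782 to 414759, minus strand, 3 annotated transcripts) was the most abundant and ranked 192 among all tested genes by mean TPM. It had 654.09, 636.82 and 644.91 TPM in the HLB01 libraries, against 738.25, 798.4 and 855.77 TPM in the Control libraries. The coefficient of variation was 1.34% in HLB01 and 7.37% in Control, and each Control value was above each HLB01 value. The means were 645 ± 8.64 TPM in HLB01 and 797 ± 58.8 TPM in Control, a 1.24-fold lower level in HLB01 (log2 fold change -0.30 ± 0.06, 95% confidence interval -0.44 to -0.17). This was the smallest p among the 9 genes, and it missed the threshold (limma adjusted p = 0.111).

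The gene dod-23 (WBGene00009898, chromosome II, 8398161 to 8399164, minus strand, 3 exons) had 172.26, 159.45 and 182.67 TPM in the HLB01 libraries, against 200.51, 223.43 and 223.39 TPM in the Control libraries. The groups were separate, and Control replicate 1 was the Control library closest to HLB01. The means were 171.5 ± 11.6 TPM in HLB01 and 216 ± 13.2 TPM in Control, a 1.26-fold lower level in HLB01. Its log2 fold change of -0.33 ± 0.07 was the largest of the 9 in size with a pseudocount of 1 (limma adjusted p = 0.141), whereas dod-20 had the larger ratio of mean TPM. Among all tested genes, 7.68% had a larger change in either direction.

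The gene dod-20 (WBGene00015259, chromosome V, 422433 to 424177, plus strand, 6 exons) was close to the detection filter, with 1.49, 1.66 and 1.61 TPM in the HLB01 libraries, against 1.9, 1.77 and 2.64 TPM in the Control libraries. Its mean was 1.33-fold lower in HLB01 than in Control. HLB01 lay below Control throughout, but by 0.11 TPM at the closest pair, and Control replicate 3 stood above the other Control libraries. The log2 fold change was -0.25 ± 0.14 (limma adjusted p = 0.716). It was -0.13 without Control replicate 3, and pseudocounts of 5 and 0.1 gave -0.11 and -0.37.

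**Figure D2:**
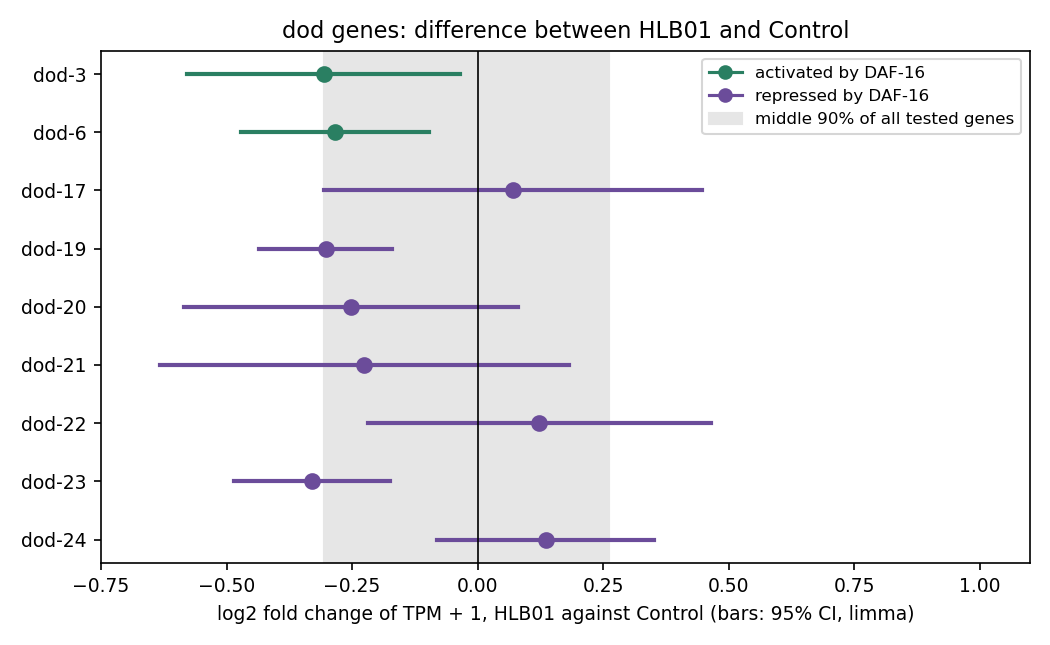
Log2 fold change of TPM + 1 (horizontal axis, HLB01 against Control) of each dod gene, with bars giving the 95% confidence interval from limma and the grey band the middle 90% of all tested genes. The intervals of dod-3, dod-6, dod-19 and dod-23 lie below 0, and those of the other 5 genes include 0.

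The 4 members on chromosome IV, dod-21, dod-24, dod-22 and dod-17, encode CUB-like proteins and lie within 41.6 kb, and none of them separated the groups. The gene dod-24 (WBGene00007875, 12940106 to 12941354, minus strand, 3 exons) had 78.54, 75.46 and 72.95 TPM in the HLB01 libraries, against 60.25, 68.81 and 78.32 TPM in the Control libraries. All HLB01 values lay above Control replicate 2 and HLB01 replicate 1 above every Control library, at 75.7 ± 2.80 TPM in HLB01 and 69.1 ± 9.04 TPM in Control (SD, n = 3 each), with a log2 fold change of 0.14 ± 0.09 (limma adjusted p = 0.777). The value was 0.04 without Control replicate 1 and 0.23 without Control replicate 3.

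Its neighbour dod-21 (WBGene00007873, 12936738 to 12937988, plus strand, 3 exons) lies 2.12 kb away and had 17.9, 16.85 and 16.59 TPM in the HLB01 libraries, against 14.7, 23.69 and 23.46 TPM in the Control libraries. Control replicate 1 lay below all HLB01 libraries and the other Control replicates above them. The log2 fold change was -0.23 ± 0.17 (limma adjusted p = 0.800), and without Control replicate 1 it was -0.44 (limma adjusted p = 0.126). It was -0.11 without Control replicate 2 and -0.12 without Control replicate 3. For dod-17 (WBGene00010745, 12976303 to 12978343, plus strand, 8 exons) the levels were 2.85, 2.63 and 3.49 TPM in HLB01, against 2.16, 2.87 and 3.43 TPM in Control. The groups overlapped almost fully, with a log2 fold change of 0.07 ± 0.16 (limma adjusted p = 0.939) that turned to -0.06 without Control replicate 1 and to -0.02 without HLB01 replicate 3, and was 0.18 without Control replicate 3. Control replicate 1 thus held the lowest value of dod-17, dod-21 and dod-24.

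The gene dod-22 (WBGene00010125, 12965374 to 12967392, plus strand, 2 annotated transcripts) had the lowest level of the 9, at 0.85, 1.21 and 1.44 TPM in the HLB01 libraries, against 0.94, 1.03 and 0.96 TPM in the Control libraries. HLB01 replicate 1 was the lowest library and HLB01 replicate 3 the highest (log2 fold change 0.12 ± 0.14, limma adjusted p = 0.872). Leaving out HLB01 replicate 1 gave 0.23, and leaving out HLB01 replicate 3 gave 0.03. The 95% confidence interval of this log2 fold change, -0.22 to 0.46, leaves room for a difference in either direction, as does that of dod-17, -0.31 to 0.45. The summed level of the 4 genes was 96.9 ± 2.91 TPM in HLB01 and 93.5 ± 14.3 TPM in Control.

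**Figure D3:**
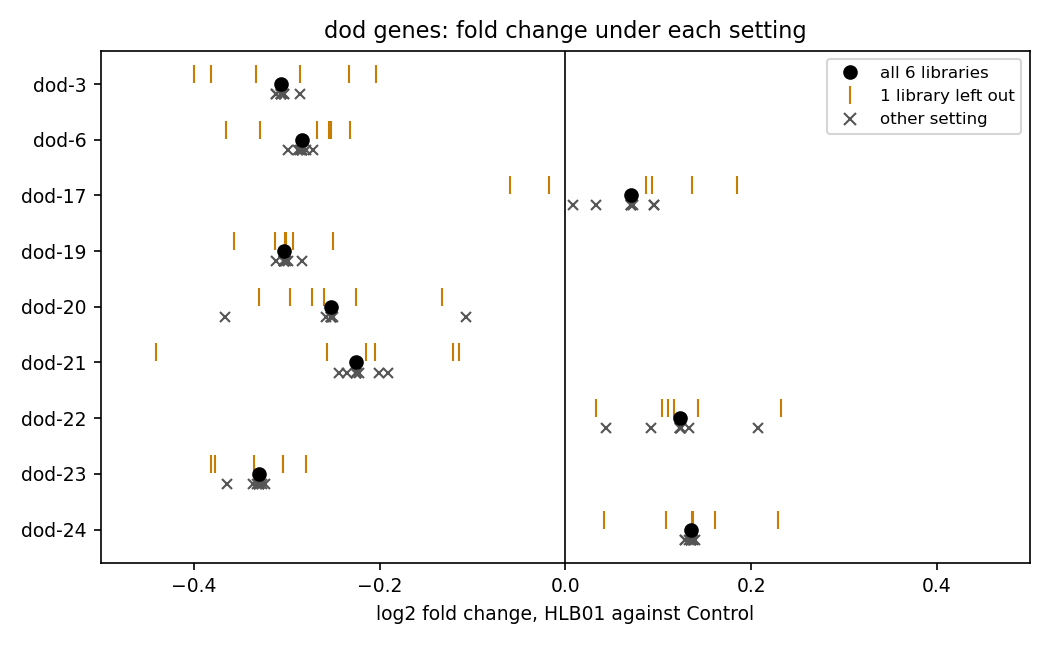
Log2 fold change of each dod gene (horizontal axis, HLB01 against Control) with all 6 libraries (filled circles), with 1 library left out (vertical ticks) and under other settings (crosses). The sign of dod-17 turns in 2 of the fits that leave out a library, and the values of dod-19 and dod-23 stay between -0.38 and -0.25.

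The mean level over the 6 libraries differed by 673-fold between dod-19 and dod-22. From high to low the order was dod-19, dod-23, dod-6, dod-24, dod-3, dod-21, dod-17, dod-20 and dod-22. In HLB01 no neighbours in this order had overlapping ranges. In Control, dod-24 overlapped with dod-3 and dod-17 overlapped with dod-20. Summed over all 9 genes, the level was 1050 ± 16.8 TPM in HLB01 and 1275 ± 90.2 TPM in Control (SD, n = 3 each), a difference of -17.6%. The gene dod-19 made up 60.5% to 62.7% of the summed level in each library. The sum over the 9 genes moved in the same direction as those of intestine markers (-13.1%), muscle markers (-13.1%) and yolk genes (-19.1%). Neuron and sperm marker sums were also lower (-3.51% and -6.44%), and those of epidermis, germline and pharynx higher (4.63%, 0.95% and 3.86%). Among these marker sums, only those of intestine and yolk did not overlap between the groups. The gene asp-1 carried most of the intestine sum. The other 8 intestine markers summed to 558 ± 1.25 TPM in HLB01 and 599 ± 24.8 TPM in Control, a difference of -6.76%. The median log2 fold change of the 9 intestine markers was -0.087, and 5 of them overlapped between the groups. That of the 4 muscle markers was -0.22, and all 4 overlapped. Among all tested genes, 6.99% lay below Control without overlap and 6.85% above, and the rest overlapped. The part of intestinal RNA in the lower sum of the 9 dod genes was not tested.

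Profiles over the 6 libraries were compared by the root mean square distance between log2(TPM + 1) values centred on each gene's mean, as a description. Among the members dod-19 and dod-23 were closest, at 0.06, and dod-21 and dod-22 farthest apart, at 0.31. Over all tested genes, the nearest to dod-19 were F35E12.6 at 0.02, hpo-6 at 0.03 and Y43B11AR.1 at 0.04, against a spread of 0.16 for dod-19 around its own mean. The gene F35E12.6 had 215, 216 and 220 TPM in the HLB01 libraries, against 245, 270 and 287 TPM in the Control libraries (limma adjusted p = 0.150). It was chosen for its likeness to dod-19 over these same 6 libraries, so its lower HLB01 values follow from that choice. The nearest to dod-6 were pzf-1, ida-1 and cutl-20, each at 0.03, against a spread of 0.17 for dod-6.

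The pathway above the dod genes showed no gene past the threshold. None of 25 tested genes of insulin signalling and DAF-16 regulation changed (limma, adjusted over all genes). Of all tested genes 0.397% changed, so a count of 0 among 25 is near that share. At an unadjusted p below 0.05, 0 of the 25 were lower or higher, against 4.52% and 3.80% of all tested genes. Their median log2 fold change was -0.02. The gene daf-16 was at 75.98 ± 2.45 TPM in HLB01 and 81.2 ± 3.54 TPM in Control (SD, n = 3 each), with a log2 fold change of -0.09 ± 0.05 (limma adjusted p = 0.695). For pqm-1 the levels were 102.2 ± 1.02 TPM in HLB01 and 103.4 ± 3.77 TPM in Control, and for the receptor gene daf-2 they were 31.3 ± 2.74 TPM in HLB01 and 30.7 ± 1.39 TPM in Control. The smallest p values of the list belonged to pdk-1, a kinase gene upstream of AKT (log2 fold change -0.20 ± 0.09, limma adjusted p = 0.611), and akt-1 (0.09 ± 0.04, limma adjusted p = 0.677). Transcript levels do not show where the DAF-16 protein was.

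Of 19 tested targets that DAF-16 activates, other than the dod genes, 2 fell and 0 rose in HLB01, whereas 0.397% of all tested genes changed. This list was written with earlier results of these data known, so its counts only describe it. At an unadjusted p below 0.05, 7 of the 19 were lower and 1 higher, against 4.52% and 3.80% of all tested genes. Those that missed the adjusted threshold were ftn-1, gpd-2, gpd-3, lys-7 and ctl-1 on the lower side and fat-7 on the higher. Both genes that fell encode small heat shock proteins, which are also induced by the heat shock factor. The gene hsp-16.1 had 150.27, 146.17 and 121.06 TPM in HLB01, against 358.93, 364.28 and 299.1 TPM in Control (log2 fold change -1.29 ± 0.10, limma adjusted p = 0.00614), and a second copy with this symbol was listed at 0 in all libraries, so the division of reads between the copies is uncertain. The gene hsp-16.2 was at 14.2 ± 2.17 TPM in HLB01 and 31.2 ± 4.20 TPM in Control (log2 fold change -1.08 ± 0.13, limma adjusted p = 0.0256). The commonly used DAF-16 readout sod-3, a mitochondrial superoxide dismutase gene, was at 2.25 ± 0.455 TPM in HLB01 and 2.41 ± 0.142 TPM in Control (limma adjusted p = 0.916). The metallothionein gene mtl-1 was at 195 ± 5.84 TPM in HLB01 and 184 ± 26.6 TPM in Control (limma adjusted p = 0.866). The list had a median log2 fold change of -0.04, with 7 positive and 12 negative values.

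None of the 7 tested genes on a list of targets that DAF-16 represses outside the dod genes changed, whereas 0.397% of all tested genes did. The yolk protein genes vit-5 and vit-2, 2 of the 7, were lower at an unadjusted p below 0.05, which holds for 4.52% of all tested genes. Their log2 fold changes were -0.35 ± 0.09 (limma adjusted p = 0.253) and -0.27 ± 0.11 (limma adjusted p = 0.599). The insulin-like peptide gene ins-7 was at 208 ± 24.4 TPM in HLB01 and 198 ± 14.3 TPM in Control (limma adjusted p = 0.883). The peptide transporter gene pept-1 had 9.87, 9.77 and 8.6 TPM in HLB01, against 8.4, 7.65 and 8.1 TPM in Control, with each HLB01 library above Control, and a log2 fold change of 0.20 ± 0.09 (limma adjusted p = 0.612). The list had a median log2 fold change of -0.07.

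**Figure D4:**
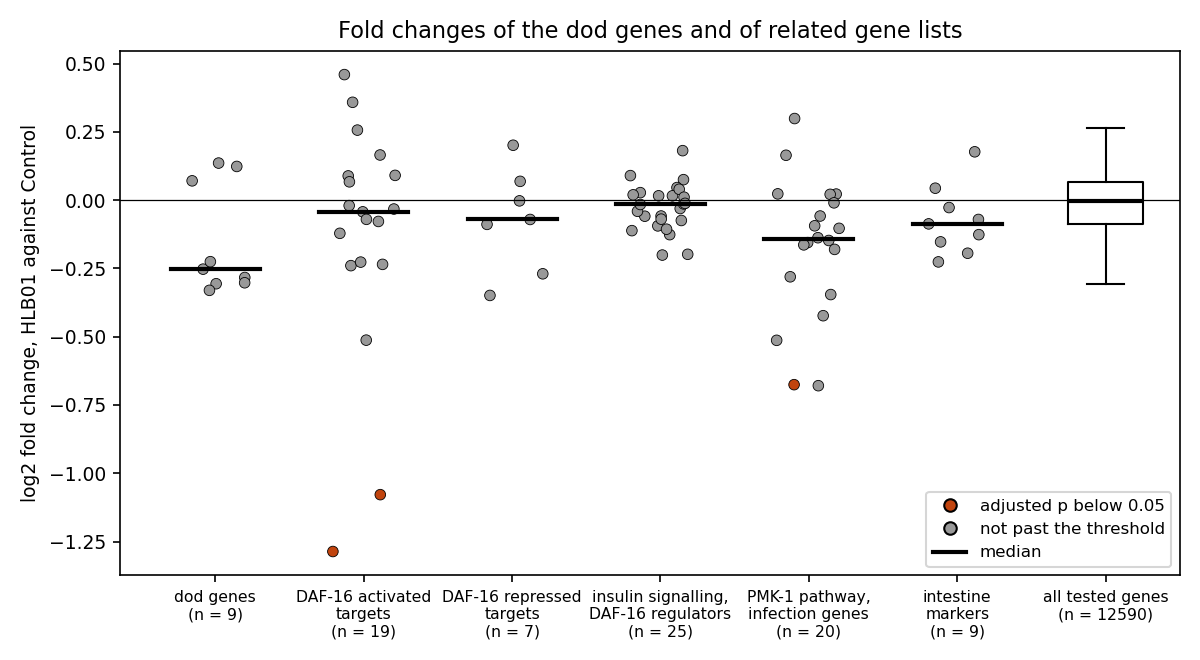
Log2 fold change (vertical axis, HLB01 against Control) of the dod genes and of the tested members of 5 related lists, 1 point per gene with a bar at the median, beside a box plot of all tested genes (whiskers from the 5th to the 95th percentile). No dod gene is past the threshold, whereas 2 DAF-16 activated targets and 1 PMK-1-dependent gene are.

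Because CUB-like dod genes are known from infection, a list of infection-induced genes tied to the p38 kinase PMK-1 was set beside them, together with 5 components of that kinase pathway, tir-1, nsy-1, sek-1, pmk-1 and atf-7. The list was written with earlier results of these data known and divided after its values were seen, so its counts only describe it. It includes F55G11.2 and F55G11.8, which return below as genomic neighbours. Of the 20 tested genes 1 fell and 0 rose, whereas 0.397% of all tested genes changed. The median log2 fold change of the 20 genes was -0.14. Negative values numbered 12 of the 15 infection-induced genes (median -0.16) and 3 of the 5 components (median -0.0099), against 51.3% of all tested genes. The gene that fell was cld-9, at 28.5 ± 0.952 TPM in HLB01 and 46.1 ± 2.08 TPM in Control (SD, n = 3 each), with a log2 fold change of -0.68 ± 0.06 (limma adjusted p = 0.00614). Counting cld-9, 5 of the 15 infection-induced genes and 0 of the 5 components were lower at an unadjusted p below 0.05, a criterion met by 4.52% of all tested genes. The 4 others missed the adjusted threshold, among them sysm-1 and the lysozyme gene lys-2, and the kinase gene pmk-1 was at 12.58 ± 1.18 TPM in HLB01 and 12.7 ± 1.19 TPM in Control.

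The members were then placed beside their genomic neighbours. None of the 9 overlapped another annotated gene, and none shared its 6 values with another row of the table. Within 10 kb lay 42 other protein-coding genes, of which 13 passed the filter, 5 with a positive and 8 with a negative log2 fold change. Of these 13, 0 changed, whereas 0.397% of all tested genes did. On chromosome V, irg-8, which is named for its response to infection, lies 1111 bp from dod-19, between dod-19 and dod-20. It had 72.48, 71.0 and 88.08 TPM in HLB01, against 87.68, 105.03 and 103.26 TPM in Control. The groups overlapped narrowly (log2 fold change -0.35 ± 0.10, limma adjusted p = 0.350), and dod-19, irg-8 and dod-20 had negative values. On chromosome IV the values were mixed. The gene cld-1, 467 bp from dod-21, had 13.73, 12.31 and 11.32 TPM in HLB01, against 8.53, 7.01 and 10.37 TPM in Control. It was above Control in each HLB01 library (log2 fold change 0.49 ± 0.14, limma adjusted p = 0.337), whereas dod-21 was lower on average. The genes F55G11.2, F55G11.4, F55G11.6 and F55G11.8 beside dod-22 and dod-17 had log2 fold changes of -0.28, -0.12, -0.02 and -0.06, with limma adjusted p of 0.727, 0.814, 0.982 and 0.963. Beyond dod-17, K10D11.3 had a log2 fold change of 0.0021 (limma adjusted p = 0.998). Near dod-23 the peroxidase gene skpo-1 had a log2 fold change of 0.17 ± 0.07 (limma adjusted p = 0.599) and drd-1 one of 0.15. Near dod-6, T20G5.8 was at -0.16, T20G5.12 at 0.36 and the clathrin heavy chain gene chc-1 at -0.07 (log2 fold changes, limma adjusted p of 0.725, 0.767 and 0.783).

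**Figure D5:**
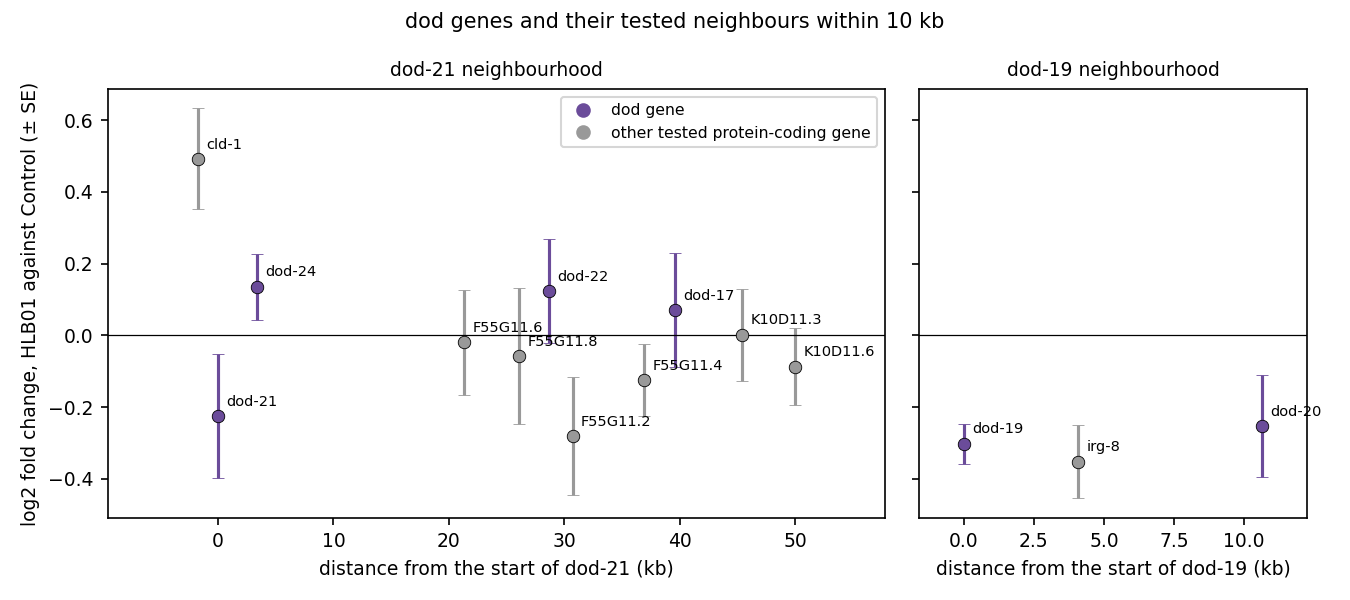
Log2 fold change ± SE (vertical axes, HLB01 against Control) of the dod genes of chromosome IV and of dod-19 and dod-20 on chromosome V (purple) and of tested protein-coding genes within 10 kb of them (grey), by distance in kb from the start of dod-21 or dod-19. On chromosome IV the neighbours run from cld-1 at 0.49, beside dod-21, to F55G11.2 at -0.28, beside dod-22, and dod-19, irg-8 and dod-20 lie between -0.35 and -0.25.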

How the data were processed

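Total RNA was extracted with TRIzol and DNase I and sequenced on standard Illumina libraries, per the labels' protocols. The deposited table holds 1 column of TPM per library, rounded by the authors; fastp, HISAT and RSEM with genome build WBcel235 were used, per the submitters' processing notes. The sources used here name no version, annotation release or strand setting. Read counts were not used here. Because every library sums to the same TPM, a change in abundant transcripts shifts the others.

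Names and positions came from an Ensembl annotation of WBcel235, with a symbol for 43818 of 46778 identifiers. HLB01 was compared with Control by limma 3.58.1 (R 4.3.3) on log2(TPM + 1), with a mean-variance trend. All genes that reached 1 TPM in 3 or more libraries were fitted. The fit was tried on simulated data with planted changes larger than that of any dod gene, so recovery of smaller changes was not tested. Fold changes are log2 differences of fitted means, which understate changes of low genes. Other folds are mean TPM ratios.

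The members and lists were chosen with earlier results of these data known. Named genes are all 9 members; daf-16, pqm-1, daf-2, sod-3, mtl-1, ins-7 and pept-1; list genes past the threshold, or the 2 with the smallest p; the 12 nearest tested neighbours within 10 kb; and the 3 genes nearest in profile to dod-6 and dod-19. The genes sysm-1, lys-2, pmk-1, tir-1, nsy-1, sek-1, atf-7, ftn-1, gpd-2, gpd-3, lys-7, ctl-1, fat-7, act-5, cpr-1, asp-1 and vha-6 were named, and the PMK-1 and intestine lists divided, after their values were seen. The yolk genes vit-3 and vit-4 were also named after their values were seen. For hsp-16.1, which names 2 rows, the row with values above 0 was taken. The names sodh-1 and dod-8 matched no symbol. Alternatives were other pseudocounts, filters, scalings and models, a replicate block, and each library left out. No sequences are printed, because the references used here hold none.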

Additional observations from a re-analysis of the deposited data

How the results depend on the processing

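Over 15 alternative settings, 0 of 132 fitted values of the dod genes passed the threshold, with the smallest limma adjusted p at 0.0714, and 130 kept their sign. The exceptions were dod-17 without Control replicate 1 (-0.059) and without HLB01 replicate 3 (-0.02), within a range of -0.06 to 0.18, and the cause was not tested. Members lower at an unadjusted p below 0.05 numbered 3 to 5 over these settings. Members below Control in all HLB01 libraries numbered 4 to 6 over 8 of them (scalings and libraries left out). Values above 4 came only with 1 library left out, where groups separate more easily. That pattern held for 12.3% of all tested genes without HLB01 replicate 3, against 6.99% with all 6 libraries. Shares over all genes were not computed for the other libraries left out. Both counts of members were added after the data were seen. The count of changed genes over the whole table was 50, and it was 80 under array weights, 27 without a trend in limma, 22 with no filter on low values and 19 to 32 with 1 library left out. Under median-of-ratios scaling and quantile normalization the median over all genes moved by less than 0.1 on the log2 scale. With a filter of 5 TPM, dod-17, dod-20 and dod-22 were not tested. With the replicate number as a block, 48 genes changed and no dod gene did (limma adjusted p of 0.168 for dod-3 and 0.135 for dod-19). Deviations of same-numbered libraries correlated at -0.01, 0.04 and 0.13 over genes. HLB01 replicates 2 and 3 correlated best with the Control library of their own number, and HLB01 replicate 1 with Control replicate 2 (0.14). The labels do not say whether a number marks a shared day or culture, and these values cannot settle it. TPM gives no depth, so how small a difference these libraries could show for members near 1 TPM is not known.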

Other observations

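The gene dod-18 carries the same kind of name and was not among the genes described above; it was picked out after its values were seen. It had 41.46, 33.72 and 39.48 TPM in the HLB01 libraries, against 36.47, 35.78 and 36.18 TPM in the Control libraries. The HLB01 values lay on both sides of the narrow Control range (log2 fold change 0.07 ± 0.08, limma adjusted p = 0.860).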
